A study of Mus musculus with 4 samples.

Results

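Interferon-stimulated mature neutrophils are neutrophils that carry transcripts of antiviral genes switched on by interferons. They were taken as cell barcodes with at least 200 genes and under 10% mitochondrial UMIs (unique molecular identifiers, each standing for 1 counted transcript) that passed 5 conditions. The cells were thus selected on measured UMIs: at least 1 UMI of Csf3r, the receptor of granulocyte colony-stimulating factor, 0 UMIs of the macrophage receptor gene Csf1r, at least 3 UMIs summed over Rsad2, Ifit1 and Ifit3, under 5 UMIs of Cxcl2 and Acod1, and under 100 UMIs per 10000 of the granule genes Camp, Ngp and Ltf. The rule found 209 cells, called gated cells below, among the 33698 cells that passed the gene and mitochondrial limits, of 35274 deposited barcodes. Without the interferon condition it describes 9025 cells, called mature neutrophils below, of which 8027 carried 0 UMIs of the 3 interferon genes and are called interferon-zero cells. The 3 interferon genes and the other 7 genes of the rule chose the cells, so their levels are a description and carry no test.

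The study placed a microgel with adenosine, or an empty control microgel, at the fractured tibia of 20-month-old male C57BL/6J mice and took the callus 7 days later. Each group has 2 libraries, named control 1, control 2, adenosine 1 and adenosine 2, and values per library are given in that order. The labels also give bone marrow as the tissue. Whether each library holds cells of 1 animal or of a pool is not stated, so the spread between libraries behind the p-values may be technical. Where the library was a block, this spread is that of the difference between the states and not of the library levels. Viable cells were sorted with propidium iodide after red cell lysis, with no sort for neutrophils.

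Interferons are secreted proteins that warn cells of infection or damage. Type I interferons (interferon alpha and beta) signal through the receptor chains Ifnar1 and Ifnar2, and a transcription factor complex that contains Stat2 and Irf9 then binds a DNA element called the interferon-stimulated response element (ISRE). Interferon gamma, made mainly by T and NK cells, signals through Ifngr1 and Ifngr2 to another element, the gamma-activated site (GAS). Both arms share many target genes, while the guanylate-binding proteins and the immunity-related GTPases are known for strong induction by interferon gamma. Neutrophils with a type I interferon program are a recurrent state of mature mouse neutrophils in blood, marrow and inflamed tissue.

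The promoters of the 3 genes of the rule are shown first, because they carry the element through which type I interferon acts. RefSeq sequences of build GRCm38.p6 were searched on both strands for ISRE (GAAA, any 2 bases, GAAA) and GAS (TTC, any 3 bases, GAA), from 250 bases before to 50 bases after the start of transcription. The 250 bases before the start are printed 5′ to 3′ on the gene's strand, with ISRE matches in capitals, and capitals of the form TTTC, any 2 bases, TTTC are the same motif read from the other strand. They lie at chr12:26456453-26456702 (Rsad2, minus strand), chr19:34640639-34640888 (Ifit1, plus), chr19:34583279-34583528 (Ifit3, plus), chr4:156200819-156201068 (Isg15, minus), chr3:142620413-142620662 (Gbp2, plus), chr7:140955962-140956211 (Ifitm2, minus) and chr2:122147437-122147686 (B2m, plus).
Rsad2: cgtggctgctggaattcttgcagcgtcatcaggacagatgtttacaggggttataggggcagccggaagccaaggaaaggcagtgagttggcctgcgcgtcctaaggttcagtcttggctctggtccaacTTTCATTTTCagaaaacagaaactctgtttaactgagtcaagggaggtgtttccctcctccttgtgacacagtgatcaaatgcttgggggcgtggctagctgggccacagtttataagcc
Ifit1: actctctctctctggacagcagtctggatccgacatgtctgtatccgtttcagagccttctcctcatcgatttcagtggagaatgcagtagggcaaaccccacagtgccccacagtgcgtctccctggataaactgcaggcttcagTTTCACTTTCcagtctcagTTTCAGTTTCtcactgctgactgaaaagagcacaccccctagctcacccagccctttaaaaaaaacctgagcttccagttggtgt
Ifit3: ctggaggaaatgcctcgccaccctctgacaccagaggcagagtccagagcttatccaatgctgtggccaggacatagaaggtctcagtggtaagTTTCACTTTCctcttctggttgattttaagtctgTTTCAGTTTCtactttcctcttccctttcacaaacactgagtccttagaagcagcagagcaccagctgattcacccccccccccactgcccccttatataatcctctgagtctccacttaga
Isg15: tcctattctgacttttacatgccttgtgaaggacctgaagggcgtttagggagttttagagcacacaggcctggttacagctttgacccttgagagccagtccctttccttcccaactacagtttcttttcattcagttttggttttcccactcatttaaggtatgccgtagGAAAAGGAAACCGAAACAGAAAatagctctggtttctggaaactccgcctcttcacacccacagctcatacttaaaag
Gbp2: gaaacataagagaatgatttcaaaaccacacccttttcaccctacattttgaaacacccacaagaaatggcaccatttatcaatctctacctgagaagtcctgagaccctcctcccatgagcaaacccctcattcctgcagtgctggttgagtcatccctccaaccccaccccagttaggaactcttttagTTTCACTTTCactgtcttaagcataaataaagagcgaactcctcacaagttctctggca
Ifitm2: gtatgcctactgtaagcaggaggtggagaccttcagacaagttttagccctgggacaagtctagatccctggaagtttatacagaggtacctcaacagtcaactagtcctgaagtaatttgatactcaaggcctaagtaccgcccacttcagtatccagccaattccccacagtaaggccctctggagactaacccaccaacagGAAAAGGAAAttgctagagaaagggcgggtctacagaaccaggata
B2m: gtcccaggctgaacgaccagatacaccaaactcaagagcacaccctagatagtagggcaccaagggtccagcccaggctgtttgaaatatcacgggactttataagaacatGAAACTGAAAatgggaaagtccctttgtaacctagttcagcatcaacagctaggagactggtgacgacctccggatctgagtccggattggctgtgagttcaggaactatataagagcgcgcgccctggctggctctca

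On mm10, per GENCODE M21, Rsad2 spans chr12:26442746-26456452 on the minus strand, Ifit1 chr19:34640871-34650009 and Ifit3 chr19:34583531-34588731, both on the plus strand. Rsad2 encodes viperin, a radical enzyme that blocks viral replication, and its match began 120 bases before the start. Ifit1 and Ifit3, neighbours on chromosome 19 whose proteins bind foreign RNA or the complexes that do, each held 2 matches, beginning 104 and 85 bases before the start in Ifit1 and 156 and 122 in Ifit3. The ubiquitin-like gene Isg15 held 3 overlapping matches within 78 bases of its start. An ISRE match was present in 3.99% of the 27025 genes with a window and a GAS match in 9.55%. Of 157 genes in the interferon lists described below, 121 had a window, and 51 of these (42.1%) held an ISRE and 29 (24%) a GAS match. Among genes known for induction by interferon gamma, 10 of 13 held an ISRE and 7 of 13 a GAS match, while 0 of 17 inflammatory mediators and 0 of 8 primary granule genes held an ISRE. GAS matches were found in 2 of the 17 inflammatory mediators, 3 of the 8 primary granule genes and 2 of 5 receptor genes. A match is a string of letters in this window and shows no binding.

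The cells carried neutrophil transcripts. Besides Csf3r, which the rule requires, all 9 other neutrophil markers, among them S100a8, S100a9, Cxcr2 and Retnlg, were detected in the gated cells of each library, with a summed level, Csf3r included, of 148827, 107122, 105671 and 125388 CPM (UMIs of the genes scaled to the UMI total of the class), against 139549, 126994, 107630 and 104302 CPM in interferon-zero cells. The 10 monocyte and macrophage markers summed to 647, 875, 754 and 1343 CPM, mostly from Ly6c2, with Csf1r at 0 by the rule and F13a1 at 0 in 3 of 4 libraries. Of the 209 cells, 74 held 2 or more UMIs of this list. Dendritic cell markers summed to 102, 3440, 162 and 1378 CPM, T and NK cell markers to 185, 80.7, 0 and 1034 CPM, and B cell markers to 166, 43.5, 53.9 and 430.0 CPM. Erythroid markers summed to 4307, 12.4, 50412 and 2.67 CPM, and 1 cell each of control 1 and adenosine 1 held nearly all of them. Interferon-zero cells held more of the B cell markers (1681, 1081, 4119 and 2104 CPM). Monocyte and macrophage markers were also higher there in all libraries but control 2 (1206, 537, 1498 and 1804 CPM). The other sums in that state were 655, 1259, 563 and 1018 CPM (dendritic), 129, 47.8, 165 and 1153 CPM (T and NK) and 21.1, 2.73, 808 and 17.3 CPM (erythroid). Gated cells were thus higher in dendritic markers in control 2 and adenosine 2, and in T and NK markers in control 1 and control 2. In erythroid markers they were higher in all libraries but adenosine 2.

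Median depth was similar across libraries but cell number was not. The 4 libraries gave 41, 59, 8 and 101 cells, whose median was 2303, 2466, 2003.5 and 2477 UMIs, against 2295, 2393, 2290 and 2277 in interferon-zero cells. Their summed UMIs were 108186, 161059, 18567 and 374430, so that 3 counts equal 27.7, 18.6, 162 and 8.01 CPM. Adenosine 1 thus rests on 8 cells, and its largest cell held 22.6% of its UMIs. The largest cell of adenosine 2 had 43750 UMIs, or 11.7% of that library's gated sum. Of the 209 cells 18 (2, 6, 2 and 8) had under 100 UMIs per 10000 of S100a8 and S100a9, the dominant neutrophil transcripts. These 18 cells held 7.98%, 17.3%, 21.6% and 19.2% of the gated UMIs. Under the same limit were 897 interferon-zero cells, which held 27.2%, 13.7%, 40.8% and 43.3% of that state's UMIs. Values with such cells left out of both states are called S100-conditioned, an alternative chosen after seeing the data. No barcode was shared between the gated cells of any 2 libraries.

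Few mature neutrophils met the interferon condition of the rule, and the share differed more between libraries of a group than between groups. They were 1.42% of mature neutrophils in control 1 (95% Wilson interval 1.05 to 1.92), 4.70% in control 2 (3.66 to 6.02), 0.291% in adenosine 1 (0.148 to 0.573) and 4.75% in adenosine 2 (3.93 to 5.74). The intervals cover counting error only. Control 2 and adenosine 2 were high and adenosine 1 was low, and the groups overlapped. The means were 2.52% (SD 3.15, n = 2) with adenosine and 3.06% (SD 2.32, n = 2) in controls, a difference of -0.54 percentage points with an exact two-sided permutation p of 1, where the smallest p the design allows is 0.333. After thinning each cell to 1000 UMIs, 9 of 2780, 35 of 1221, 1 of 2626 and 40 of 2063 cells passed (0.324%, 2.87%, 0.0381% and 1.94%), with 115, 34, 123 and 63 shallower cells left out.

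**Figure D1:**
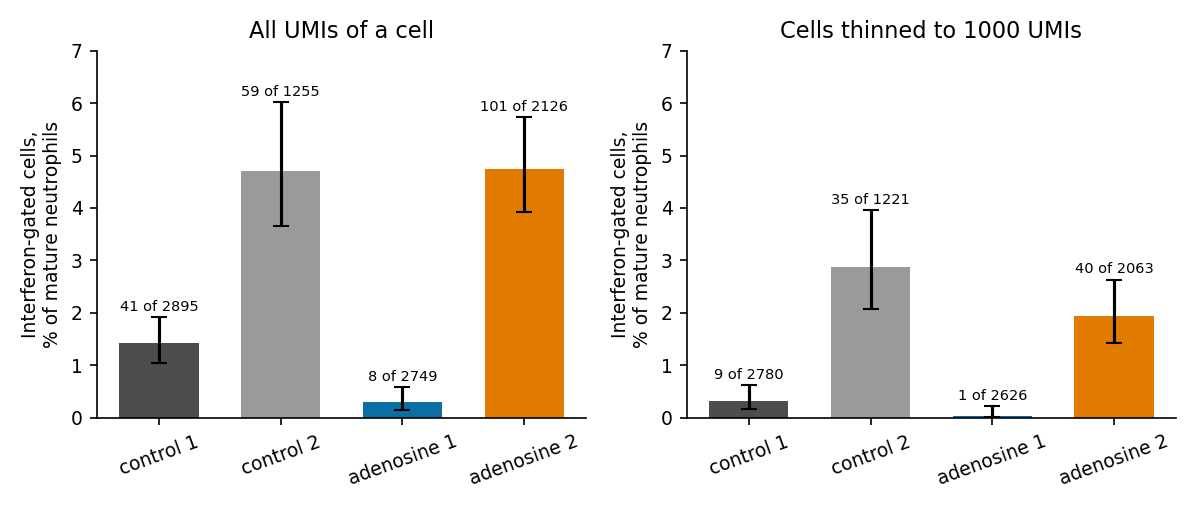
Share of mature neutrophils that pass the interferon rule in each of the 4 libraries (percent), with 95% Wilson intervals. Control 2 (4.70%) and adenosine 2 (4.75%) stand above control 1 (1.42%) and adenosine 1 (0.291%).

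The interferon condition was also met in other cells. Among B cells (Cd79a-positive, without Csf3r or Csf1r), which should carry little of these genes at rest, 0 of 361, 0 of 80, 1 of 372 and 5 of 725 had 3 or more UMIs of Rsad2, Ifit1 and Ifit3 at median depths of 4595, 3938, 4437 and 3920 UMIs, shares of 0.269% and 0.690% in the 2 adenosine libraries. Counts of 0 allow up to 0.831% and 3.75%. The share of mature neutrophils in adenosine 1 thus cannot be told from that of its B cells, and the B cell share of control 2 rests on 80 cells. In adenosine 2 the interval of the mature neutrophils lay above that of its B cells, while in control 1 the 2 intervals overlapped (1.05 to 1.92 against 0 to 1.053). After thinning, 0 B cells passed in any library. Monocytes with 3 or more such UMIs made up 2.16%, 5.53%, 1.39% and 3.98%, at median depths of 9192, 9156, 11263 and 11503 UMIs. Thinned to 1000 UMIs, monocytes passed at 0, 0.730%, 0.232% and 0, below the thinned mature neutrophils in 3 of 4 libraries, adenosine 1 being the exception. Activated neutrophils, the cells with 5 or more UMIs of Cxcl2 and Acod1, passed in 2 of 82, 183 of 2392, 6 of 55 and 7 of 45 cells (2.44%, 7.65%, 10.9% and 15.6%), or at 1.23%, 3.58%, 1.89% and 4.65% when thinned. Neutrophils high in Camp, Ngp and Ltf passed at 0.674%, 1.25%, 0.151% and 1.41%. Of all neutrophils that met the interferon condition, activated cells, which the rule leaves out, were 3.51%, 75%, 35.3% and 5.43%, so the share of control 2 covers the smaller portion of its interferon-high neutrophils.

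The 3 genes of the rule did not always occur together. Rsad2 was found in 187 of the 209 cells, Ifit3 in 111 and Ifit1 in 99, and 47 cells held all 3 while 62 held Rsad2 alone. Rsad2 stood at 1423, 2080.0, 1023 and 636 CPM, Ifit3 at 240.3, 1018, 269 and 566 CPM, and Ifit1 at 324, 671, 108 and 278 CPM. Control 2 was highest for each of the 3. Ifit3 has a near-identical copy, Ifit3b, at 157, 553, 108 and 224 CPM, and reads of the pair may have been split in counting. The median cell held 4, 7, 3 and 4 UMIs over the 3 genes, and the highest, in control 2, held 130.

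Other interferon genes were higher in cells with more UMIs of the rule. Antiviral effectors and ISGylation genes (none of them in the rule) summed to 5314 CPM in the 8027 cells with 0 such UMIs, 8625 in the 612 with 1 and 10479 in the 177 with 2. Just inside the threshold, 72 cells with 3 UMIs stood at 12964 CPM and 32 cells with 4 at 16680.0 CPM. The 74 cells with 5 to 9 UMIs reached 21224 CPM and the 31 with 10 or more 23511 CPM. These pooled bins mix libraries of different levels. From 5 to 9 UMIs to 10 or more the level was lower in control 1 (21001 and 19016 CPM) and adenosine 2 (19368 and 13768 CPM), and it was higher in control 2 (23715 and 39587 CPM), which supplied 17 of the 31 cells. The 2 lower values lean on single cells. Control 1 had 3 cells at 10 or more UMIs, 1 of them with 14.25 antiviral effector UMIs per 10000. Adenosine 2 had 11, and the largest, with 43750 UMIs in total, had 52.8 antiviral effector UMIs per 10000. In adenosine 1 it was 3815, 3662, 5566 and 10523 CPM at 0, 1, 2 and 3 UMIs. These values are a description, since genes induced together come along with the selection.

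**Figure D2:**
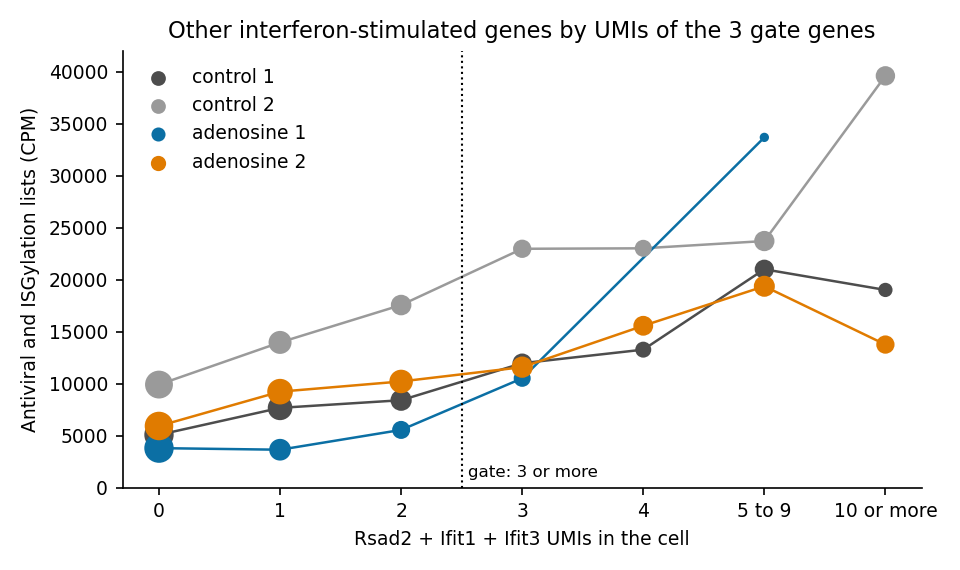
Summed CPM of antiviral effector and ISGylation genes outside the rule against the number of Rsad2, Ifit1 and Ifit3 UMIs per cell, for each library, with dot size by the number of cells. At 10 or more UMIs the level was 39587 CPM in control 2 (17 cells), 19016 CPM in control 1 (3 cells) and 13768 CPM in adenosine 2 (11 cells). The latter 2 were below their own values at 5 to 9 UMIs, and 1 cell of the adenosine 2 bin had 43750 UMIs in total.

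Antiviral effectors were the most abundant interferon genes in these cells. The list summed to 14993, 26301, 11634 and 13570.0 CPM, which was 2.98, 2.69, 3.10 and 2.34 times the level of interferon-zero cells of the same library. Over the 36 antiviral genes with a fitted difference between the states, 35 were higher in gated cells and the median log2 difference was 2.16, against -0.21 over all genes tested. Genes induced together with those of the rule come along with the selection, so these values are a description and no test. Slfn4, a myeloid schlafen, stood at 1100.0, 2440.1, 1077 and 574 CPM against 109, 362, 52.9 and 101 CPM in interferon-zero cells. Oasl2, of the oligoadenylate synthetase family that senses double-stranded RNA, stood at 1044, 695, 646 and 943 CPM against 68.0, 94.8, 15.9 and 237 CPM. For both genes every gated value lay above every interferon-zero value.

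The abundant membrane proteins Ifitm2 and Ifitm3, which hinder virus entry, differed less. Ifitm3 stood at 1618, 3148, 646 and 2123 CPM against 672, 815, 302 and 1126 CPM, so that the states overlapped. Ifitm2 stood at 1589.8, 4123, 1562 and 788 CPM against 1116, 3615, 809 and 634 CPM, although its promoter holds an ISRE match. In both states the Ifitm2 level was highest in control 2.

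ISGylation, the attachment of Isg15 to proteins, had the highest ratio between the states among the interferon lists in 3 of 4 libraries, adenosine 1 being the exception. Its 6 genes summed to 934, 2695, 592 and 1026 CPM, or 13.1, 17.8, 10.5 and 6.65 times the interferon-zero level. Isg15 stood at 231, 1316, 162 and 272 CPM against 6.67, 51.2, 1.79 and 23.1 CPM. Usp18, which removes Isg15 and damps type I signaling, stood at 139, 416, 53.9 and 120.2 CPM, and Herc6, the mouse Isg15 ligase, at 333, 317, 108 and 389.9 CPM. Control 2 was highest for Isg15 and Usp18 but not for Herc6.

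Nucleic acid sensors summed to 1507, 2800.2, 1023 and 1792 CPM, or 3.43, 5.02, 2.76 and 2.29 times the interferon-zero level. Ifi204, a DNA sensor of the p200 family, stood at 342, 584, 162 and 406 CPM, the highest of the list in all libraries but adenosine 1. The RNA helicase Ddx58 (RIG-I) stood at 333, 317, 215 and 160.2 CPM and Ifih1 (MDA5) at 222, 229.7, 53.9 and 160.2 CPM. The adenosine 1 values of Ifi204 and Ifih1 are at or under the 162 CPM that 3 counts amount to there.

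Signal transducers summed to 3023, 3551, 4093 and 4161 CPM, 1.80, 1.89, 2.83 and 1.82 times the interferon-zero level. Irf7, which amplifies interferon alpha production, stood at 64.7, 453, 162 and 152 CPM, and Irf9 at 157, 217, 215 and 118 CPM. The receptor chains did not share this pattern, since the list was 1.02, 0.913, 1.70 and 1.03 times its interferon-zero level. Ifnar2 stood at 249.6, 242, 377 and 214 CPM against 176, 241, 152 and 172 CPM, and Ifngr1 at 120.2, 149, 53.9 and 115 CPM. MHC class I and antigen processing genes were 1.76, 1.81, 1.56 and 1.37 times their interferon-zero level. Cxcl10, a chemokine for T cells, was found in 11 cells only, at 0, 124, 0 and 45.4 CPM.

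**Figure D3:**
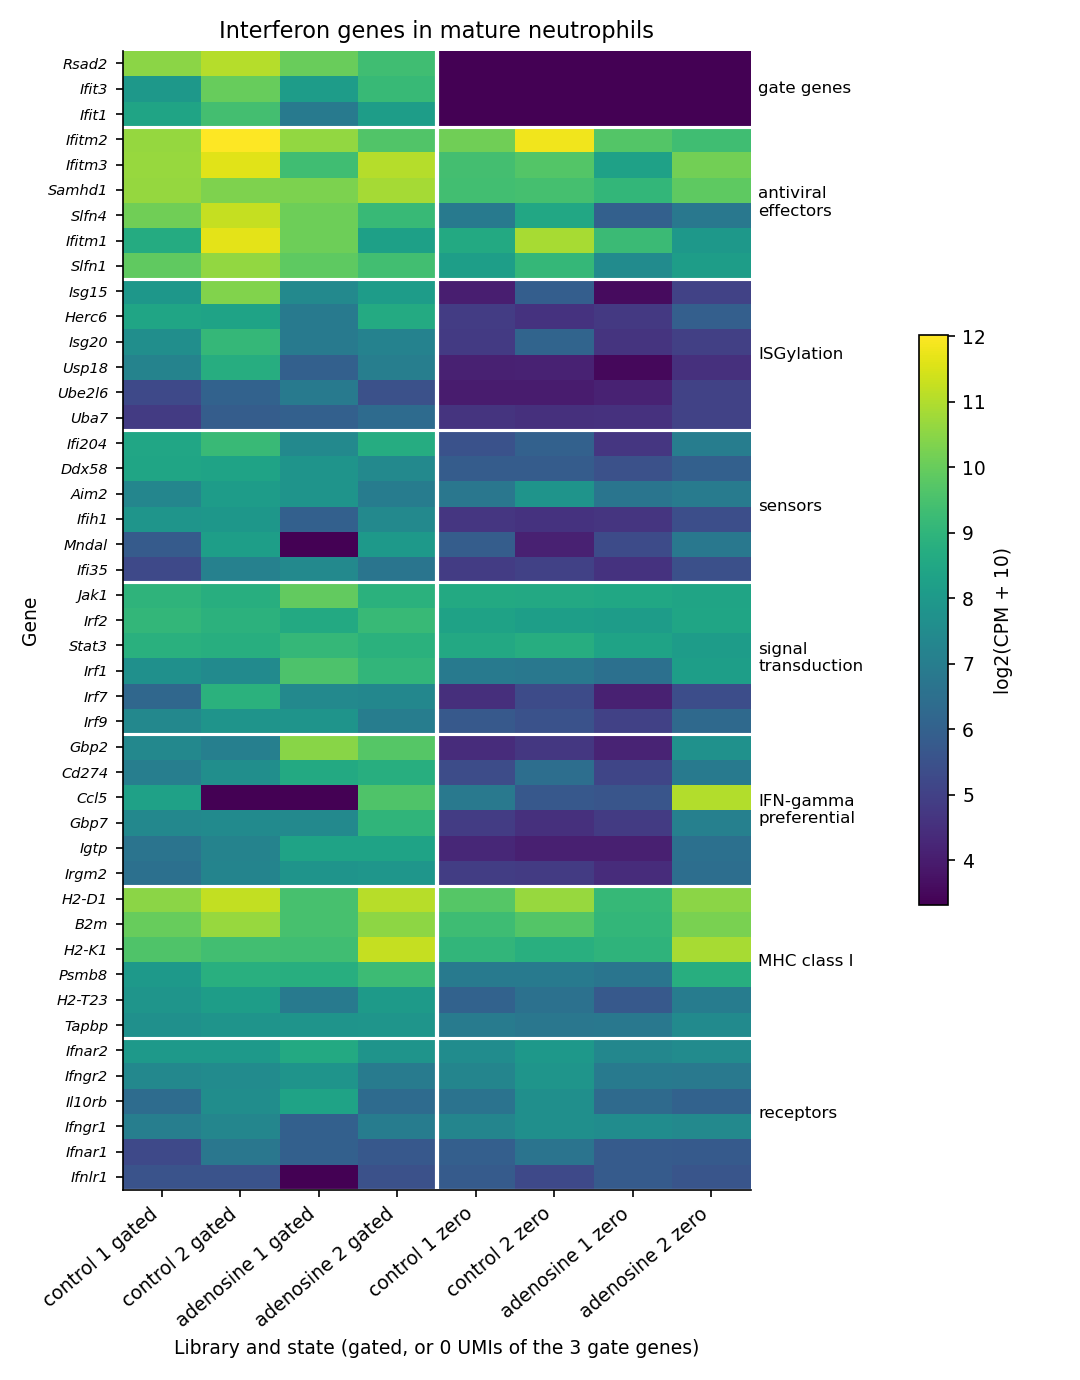
Level of named interferon genes, as log2(CPM + 10), in gated and interferon-zero mature neutrophils of the 4 libraries. The gated columns are higher for Isg15 and Slfn4, and Gbp2 is also higher in the interferon-zero column of adenosine 2 than in those of the other libraries.

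Genes known for induction by interferon gamma set adenosine 2 apart. The 23 genes summed to 1165, 1074, 2855 and 4113 CPM in gated cells and to 249, 218, 161 and 3034 CPM in interferon-zero cells, so the last library was high in both states. In its interferon-zero cells 2075 CPM came from Ccl5, a chemokine abundant in T and NK cells, against 105, 42.0 and 39.0 CPM elsewhere. Without Ccl5, a choice made after seeing the data, the other 22 genes summed to 859.6, 1074, 2855 and 3338 CPM in gated cells and 144, 176, 122 and 959 CPM in interferon-zero cells. Per cell the whole list had a median of 4.70, 7.29, 5.90 and 28.4 UMIs per 10000, and 11, 13, 3 and 3 cells had none. Adenosine 2 was the high library per cell, and adenosine 1 was not.

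The sum for adenosine 1 came from few cells. Of its 53 UMIs of the list, 47 (88.7%) lay in the 2 cells below the S100 condition. With the condition the list stood at 733, 916, 412 and 3389 CPM, and adenosine 1 was then the lowest library. Set against the antiviral effectors, the list amounted to 4.66%, 4.02%, 3.37% and 24.3% of their CPM under the condition.

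Gbp2, a guanylate-binding protein that attacks the vacuoles of intracellular microbes, followed the same pattern. It was found in 9 of 41, 11 of 59, 1 of 8 and 73 of 101 gated cells, and in 71 of 2639 (2.69%), 39 of 1088 (3.58%), 64 of 2686 (2.38%) and 612 of 1614 (37.9%) interferon-zero cells. Its gated level was 157, 124, 1400.3 and 831 CPM, where the adenosine 1 value comes from 26 UMIs in 1 cell. With the S100 condition the levels were 161, 97.6, 0 and 883 CPM. Monocytes also differed by library, with Gbp2 at 16.9, 10.3, 32.9 and 245 CPM. Cd274, which encodes the checkpoint ligand PD-L1, stood at 120.2, 186, 377 and 430.0 CPM in gated cells, or 100.5, 180.2, 0 and 479 CPM with the condition.

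**Figure D4:**
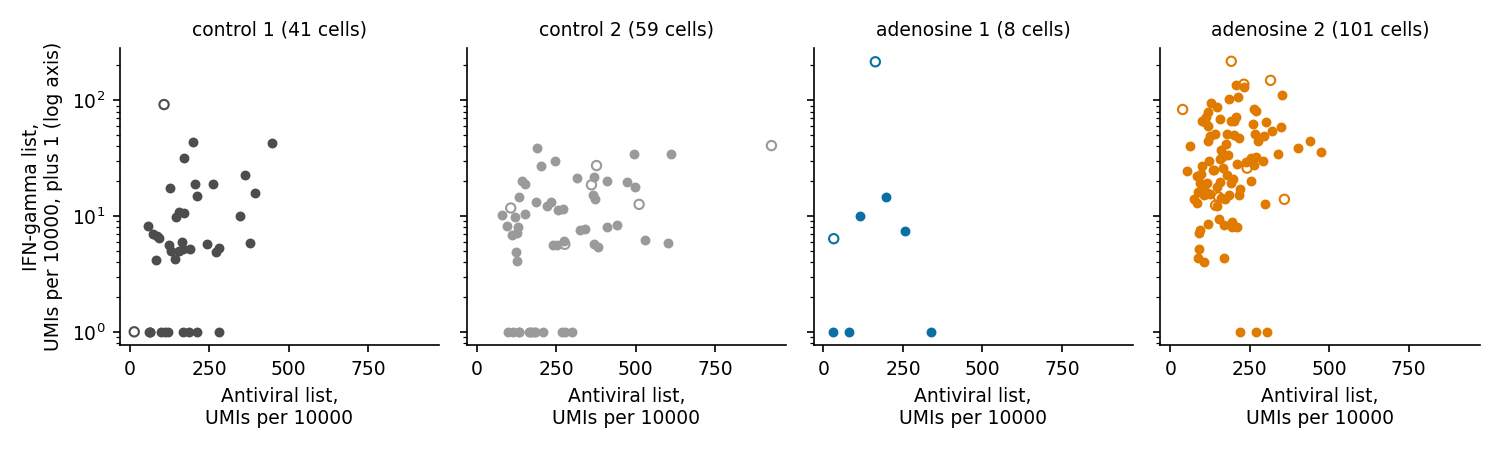
Each gated cell by its antiviral effector UMIs per 10000 (x axis) and its UMIs per 10000 of genes known for induction by interferon gamma (y axis), by library. Open circles are cells below the S100 condition; the median y value is 28.4 in adenosine 2 and 4.70 to 7.29 in the other libraries.

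Of the interferon genes themselves, Ifng was the one detected with more than 29 UMIs. It had 31, 3, 27 and 1228 UMIs over all kept cells, and in T cells 17 of 163, 0 of 40, 14 of 220 and 320 of 1140 cells held it. In gated cells it had 1 UMI, and in interferon-zero cells 4, 0, 0 and 56 UMIs. Adenosine 2 had the most T cells and the most Ifng, the library in which the gamma-induced genes were high in both neutrophil states. T and NK markers in gated cells were also highest there, and their part in the result was not tested. Ifnb1 had 2 UMIs in all kept cells of the 4 libraries together, and Ifna1, Ifna2, Ifna4 and Ifna5 had 0.

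Adenosine against control within these cells gave no gene past the threshold. With UMIs summed per library, edgeR's quasi-likelihood test with Benjamini-Hochberg adjustment called 0 of 2514 genes (percent called 0), with 82 genes at an unadjusted p under 0.05, and DESeq2 also called 0, with 44. With the S100 condition 0 of 2110 genes passed, with 121 at an unadjusted p under 0.05. The smallest adjusted p of edgeR was 0.9997, and adenosine 1 enters with 8 cells. Without control 1 edgeR called 28 genes, and it called 3 without adenosine 1 and 1 without control 2.

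Values are therefore given as descriptions. The antiviral effectors had a median log2 difference (adenosine over control) of -0.57, with 6 positive and 23 negative of 29, beside a median of 0.01 over all genes, and the ISGylation genes one of -1.41 with 4 of 4 negative. The gamma-induced genes had a median of 1.45, with 8 of 8 positive. No member of these lists passed the test. Other lists moved as one-sidedly in the same comparison: the mitochondrially encoded genes had a median of 1.73 (9 of 9 positive), ribosomal proteins 0.96 (20 of 21 positive), erythroid markers 2.63 (4 of 4 positive) and inflammatory mediators -1.10 (11 of 12 negative). Their part in the interferon values was not tested. Gbp2 had a log2 difference of 2.92 (SE 0.56, unadjusted p 0.00063 by edgeR), which was 2.26 (SE 0.89, unadjusted p 0.0304) with the S100 condition. Isg15 had one of -1.70 (SE 0.84), with control 2 far above the other 3 libraries.

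The genes with the lowest unadjusted p included Oasl1, a regulator of interferon production, at 296, 435, 53.9 and 72.1 CPM (log2 -2.34, SE 0.61, unadjusted p 0.00452). Apoe, a lipid carrier abundant in macrophages, stood at 166, 205, 0 and 18.7 CPM, and Thbs1, the matrix protein thrombospondin, at 129, 304, 53.9 and 10.7 CPM. Lrg1, a secreted granule protein, stood at 194, 559, 53.9 and 40.1 CPM. For each of these 4 genes both controls lay above both adenosine libraries. Adenosine 1 held 0 UMIs of Apoe and 1 UMI each of Oasl1, Thbs1 and Lrg1. Its 3 counts equal 162 CPM, above Thbs1 in control 1 and close to Apoe there, so it can hardly show a drop. In interferon-zero cells all 4 genes had the same order, so it was not particular to gated cells. Thbs1 stood there at 179, 449, 34.6 and 4.32 CPM, and Lrg1 at 116, 848, 74.96 and 52.98 CPM. On the other side mt-Nd2, a mitochondrially encoded subunit of complex I, stood at 55.5, 86.9, 323 and 609 CPM, with 37.4% of its UMIs in 1 cell. Cep128 stood at 0, 6.21, 108 and 128 CPM and the mitotic motor Kif11 at 0, 0, 108 and 109.5 CPM, the latter in 5 cells. None passed the adjusted threshold.

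The adenosine receptors were near the limit of detection in these cells. Adora1 had 0 UMIs in all 4 libraries, Adora2a was found in 1 cell, Adora2b in 3 and Adora3 in 2 of 209. Entpd1 (CD39), which degrades extracellular ATP on the way to adenosine, was found in 132 cells at 629, 702, 377 and 414 CPM, a log2 difference of -0.71 (SE 0.52) that did not pass the edgeR test.

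Against interferon-zero cells of the same library, genes outside the rule and the interferon lists were tested. With the library as a block, edgeR called 334 of all 8936 genes outside the rule (3.74% called at an adjusted p under 0.05, 1.57% higher and 2.17% lower), and 124 of 7362 with the S100 condition (1.68%, 1.14% higher and 0.543% lower). Without the interferon lists 268 of 8819 genes passed (3.04%), 74 higher (0.839%) and 194 lower (2.2%). With the S100 condition these were 72 of 7261 (0.992%), 33 higher (0.454%) and 39 lower (0.537%). Of the 72, 68 were also among the 268, all in the same direction. Without control 1 the 334 calls became 114, and the 124 became 80. In place of 334 the count was 84 without cells holding monocyte markers, 82 with reference cells matched on total UMIs and 20 with no library block. It was higher with doublets removed (455), no filter (456) or library size alone (372). These counts, and those without control 1, include genes of the interferon lists and are not given for the genes outside them alone. The S100-conditioned values are given from here on, because cells low in S100a8 and S100a9 held up to 43.3% of the reference UMIs.

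Among the genes higher in gated cells most of those named are known as interferon-induced, though they were in no list. Such genes come along with a selection on Rsad2, Ifit1 and Ifit3, so their direction is no independent support. Rnf213, a giant ubiquitin ligase that coats intracellular bacteria, stood at 563, 255, 206 and 327 CPM against 50.8, 28.1, 44.3 and 88.0 CPM (log2 2.59, SE 0.25, edgeR adjusted p 3.88e-23). Ddx60, a helicase that promotes RIG-I signaling, stood at 884, 578, 962 and 741 CPM against 185, 60.5, 142 and 354 CPM (log2 2.03, SE 0.22). In both genes every gated library lay above every interferon-zero library. Epsti1 stood at 623, 533, 687 and 764 CPM against 145, 76.7, 108 and 297 CPM (log2 1.95, SE 0.22). Ifi47, an immunity-related GTPase, stood at 60.3, 82.6, 0 and 271 CPM against 6.28, 2.77, 5.90 and 69.3 CPM (log2 2.71, SE 0.44). Parp9, Parp12, Helz2, Trafd1 and Trim34a were also higher, with log2 differences of 1.88, 2.17, 1.95, 1.70 and 1.46. Smchd1, a chromatin protein of X inactivation, was higher by 1.62 (SE 0.22), at 563, 638, 618 and 357 CPM against 143, 138, 126 and 177 CPM. The lectin Clec4a1 was higher by 1.82 (SE 0.54, edgeR adjusted p 0.0451) on 5, 5, 1 and 10 gated UMIs. It did not pass over all cells (log2 1.25, edgeR adjusted p 0.138). Hbb-bs also passed, with 619 UMIs in 1 cell of adenosine 1.

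The genes lower in gated cells were led by primary granule proteases, made at the promyelocyte stage. Of 9 tested primary granule genes 5 were lower (Prtn3, Elane, Mpo, Ctsg and Ms4a3) and none higher. Elane, neutrophil elastase, stood at 50.2, 0, 0 and 62.8 CPM against 676, 0.79, 1182 and 1477 CPM (log2 -4.56, SE 0.37, edgeR adjusted p 5.75e-32). Mpo, myeloperoxidase, stood at 50.2, 0, 0 and 33.1 CPM against 238, 0, 605 and 381 CPM (log2 -3.39, SE 0.39). Control 2 had almost none in either state.

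This difference came from a few reference cells. Interferon-zero cells with 10 or more UMIs of the 5 genes were 0.956%, 0, 1.79% and 1.60% of S100-conditioned cells and held 93.8%, 0, 96.7% and 95.5% of these UMIs. No gated cell of any library had 10 such UMIs. With the S100 condition the gated cells numbered only 39, 53, 6 and 93, so at the reference shares few such cells would be found among them. Their absence was not tested. The edgeR p-values of these genes rest on UMIs summed per library and take no account of this clustering in single cells. At least 1 UMI was found in 28.2%, 1.89%, 0 and 46.2% of gated cells and in 22.1%, 1.31%, 22.2% and 32.1% of interferon-zero cells, so in 3 of 4 libraries the share of cells with any such UMI was not lower in gated cells.

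Few genes of other neutrophil programs passed. Of 15 inflammatory mediators Ptgs2, the prostaglandin synthase COX-2, was higher (log2 1.15, SE 0.24, edgeR adjusted p 0.000121), where all cells without the condition had 4 of 16, with Il1b, Il1r2 and Ccrl2 besides. Ptgs2 over all cells stood at 407, 279, 700.2 and 115 CPM against 84.3, 281, 50.5 and 43.5 CPM, and control 2 showed no difference. Of 20 survival genes Pmaip1 (Noxa), a pro-apoptotic BH3 protein, was higher (log2 1.17, SE 0.34, edgeR adjusted p 0.0396). Of 31 maturity genes Stfa3, a stefin protease inhibitor, was lower (log2 -2.81, SE 0.58), and the other 30 did not pass, among them Cxcr2 and Retnlg. S100a8 and S100a9 chose the cells of this condition, so their values under it carry no test. Of these 31 genes 28 were negative, with a median log2 difference of -0.33. Over all genes the median was -0.13, with 4616 of 7362 negative. Over all cells without the condition 16 maturity genes were positive and 15 negative. Of 16 secondary and tertiary granule genes Fcnb was lower (log2 -4.38), and all 16 were negative, with a median of -0.52. The 9 tested neutrophil markers, which include S100a8 and S100a9 and share genes with the maturity list, were all negative, with a median of -0.46. In all, 8 of the 22 ribosomal protein genes and mt-Co3 among the 11 mitochondrial genes were lower, where all cells without the condition had 20 and 6. Over all cells 3 survival genes (Casp4 and Bcl2a1a besides Pmaip1) were higher, as was Atf3, and the stress genes Hsp90aa1 and Hsp90ab1 and the cell cycle genes Stmn1 and Top2a were lower, none of which passed with the condition but Pmaip1. With the condition no gene of the hypoxia, ageing and trafficking or cell cycle lists passed.

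**Figure D5:**
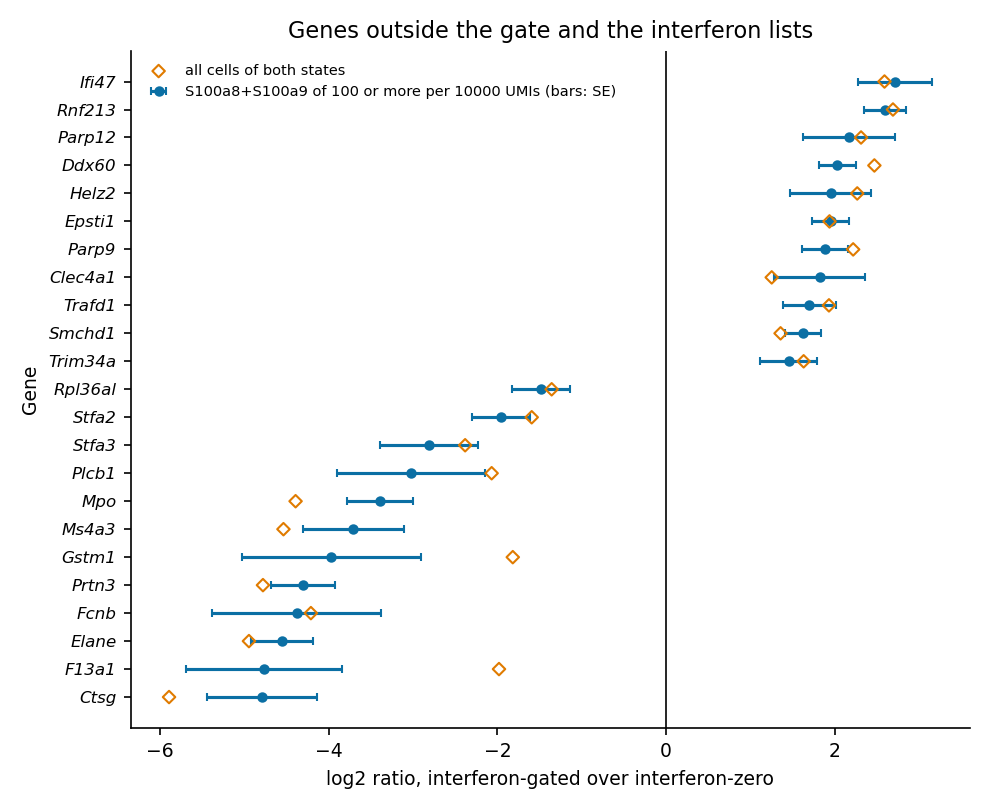
Log2 difference between gated and interferon-zero mature neutrophils for the named genes outside the rule and the interferon lists, S100-conditioned with SE (filled) and over all cells (open diamonds). Rnf213 (2.59) and Ddx60 (2.03) are among the higher genes, and Ctsg (-4.80), F13a1 (-4.77) and Elane (-4.56) have the lowest values; Hbb-bs is not drawn.

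The question whether adenosine acted differently on the 2 states was tested as an interaction. It called 14 of 10301 genes (0.136%, edgeR adjusted p under 0.05), 7 in each direction (0.068% higher and 0.068% lower), and 269 had an unadjusted p under 0.05. With the S100 condition 0 of 8695 genes passed, with 323 at an unadjusted p under 0.05, and DESeq2 called 0 on all cells, with 68. Of the 14, 11 genes were each found in 2 to 13 gated cells, and without control 1 the count was 3. None of these 11 is in the interferon lists.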

How the data were processed

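The data are droplet single-cell RNA libraries (10x 3′ v2) of 4 samples. Per the submitters' processing notes, the authors used bcl2fastq, Cell Ranger 7.0.0 and build mm10; which annotation was used, and whether intronic reads were counted, is not given in the sources used here. Each deposited matrix gives unnormalized UMI counts of genes by barcode, with 9949, 6753, 9402 and 9170 barcodes and 58453640, 32277757, 59503381 and 68117846 UMIs.

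Cells were gated by the rule in the text. Doublets were not removed in the main analysis; Scrublet (scanpy 1.11.5, Python 3.11.15) placed 5 of the 209 cells among the highest scores at 0.8% per 1000 barcodes. UMI counts were summed per library and state. Low genes were removed by filterByExpr, TMM set the scaling, and the quasi-likelihood test of edgeR 4.0.16 (R 4.3.3) was used, with p-values adjusted by Benjamini and Hochberg over all genes tested; DESeq2 1.42.0 was an alternative, with other interferon UMI minimums, filters and scalings, matched reference cells and each library left out. The comparison of states used the library as a block. CPM are counts scaled to the UMI total of the class. The procedure was tested on simulated data. The share was compared by an exact permutation test (scipy 1.17.1). Genes were named by rule: those past the threshold by fold change with at least 20 CPM, or the lowest unadjusted p where fewer than 4 passed, and up to 6 members of each list. The list symbols Mx1, Mx2, Mnda, Cxcl11, Azu2, Faslg and Aldoa were not analysed here, and results for 2 other genes are not reported here. The members and lists were chosen with earlier results of these data known.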

Additional observations from a re-analysis of the deposited data

Results flagged for a closer look

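In 11 genes the treatment difference differed between gated and interferon-zero cells (edgeR interaction, adjusted over all genes; log2 of the treatment difference in gated cells over that in interferon-zero cells). Each was found in few gated cells. With control libraries at 0 UMIs the fitted value depends on the prior count and is no bound.

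Values were positive for Ebf1 (11.72, adjusted p 0.0054, 3 cells), F13a1 (11.01, adjusted p 0.0248, 3 cells), Pf4 (9.11, adjusted p 3.05e-10, 2 cells), Hist1h2ap (5.08, adjusted p 0.0248, 13 cells) and Cdkn1a (4.18, adjusted p 0.0289, 9 cells). The largest cell held 98.3% of the Pf4 UMIs, 86.4% of F13a1, 57.7% of Cdkn1a, 50.6% of Hist1h2ap and 37.5% of Ebf1.

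Values were negative for Slc25a21 (-7.02, adjusted p 0.000114), Slc4a1 (-6.24, adjusted p 0.0336), Sox6 (-6.20, adjusted p 0.000107), Hba-a1 (-4.27, adjusted p 0.00038), Hbb-bt (-3.65, adjusted p 0.00832) and Hba-a2 (-3.61, adjusted p 0.00583). Of these Hba-a1, Hba-a2, Hbb-bt and Slc4a1 are genes of red cell precursors. Each was found in 2 or 3 gated cells, and the largest cell held 51.0% to 96.9% of the UMIs.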

How the results depend on the processing

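The share of gated cells kept no direction: its difference was -0.54 percentage points, 0.39 at 2 or more interferon UMIs, and between -2.77 and 1.69 with each library left out. Genes called between the states (334 with the interferon lists) were 137 with DESeq2, 185 at 2 or more and 209 at 5 or more interferon UMIs, 124 with the S100 condition, 76 with that and DESeq2, 80, 85, 169 and 98 with that and without control 1, control 2, adenosine 1 or adenosine 2, 84 without cells holding monocyte markers, 82 with reference cells matched on total UMIs, 20 with no replicate block, and 114 (without control 1) to 266 with each library left out. Interaction calls (14) were 0 with DESeq2, 26 at 2 or more UMIs, 0 with the S100 condition, 3 with matched cells, and 3 (without control 1) to 16 with each library left out; without control 2 there were 4. Treatment calls (0) were 1 at 5 or more UMIs, 1 without monocyte-marker cells, 19 with no filter, and 0 to 28 with each library left out (28 without control 1, 3 without adenosine 1, 1 without control 2). With the replicate block the treatment calls were 0; same-numbered libraries correlated at 0.0547 over 2514 genes, and nothing in the labels pairs them.

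These log2 values turned sign: Car1 (state) 0.15 and Hist1h2ap -0.68 at 2 or more UMIs; Pf4 -2.52 at 5 or more; Ebf1 -0.91 without monocyte-marker cells; Hbb-bt 2.62 with matched cells. With the S100 condition Hba-a1 was 10.57, Hba-a2 3.82, Hbb-bt 9.32, Slc25a21 1.57, Slc4a1 4.62 and Sox6 6.16. With each library left out, values ran from -14.63 to 7.55 for Hba-a1, -13.17 to 0.087 for Hba-a2, -12.94 to 7.94 for Hbb-bt, -1.19 to 3.03 for Slc22a23 (state), -15.11 to 0.075 for Slc25a21, -12.24 to 1.45 for Slc4a1 and -8.07 to 0.13 for Sox6, with the sign turned without control 1. They ran from -0.81 to 12.01 for F13a1, -6.69 to 8.17 for Hist1h2ap and -4.12 to 15.93 for Pf4, with the sign turned without adenosine 2. The cause was not tested. With 8 cells, adenosine 1 cannot show a gene under 162 CPM above 3 counts.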
